A study of Mus musculus with 9 samples.

Results

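The circadian clock genes were followed through 9 mouse RNA-seq libraries labelled as midbrain: Clock, Arntl, Per1, Per2, Per3, Cry1, Cry2, Nr1d1, Nr1d2 and Dbp, chosen by symbol. All 10 were among the 28991 genes of the count table, and all 10 were among the 17285 genes that passed the filter on low counts. The libraries came from C57BL/6 mice in 3 groups of 3 animals each. The MPTP+PF4 mice received MPTP by intraperitoneal injection for 7 days and PF4 intravenously every 3 days, the MPTP mice received MPTP alone, and the control mice received saline. MPTP is a toxin that damages dopaminergic neurons, and PF4 (platelet factor 4) is a platelet chemokine. The sources used here do not give the age of the mice, the doses or the hour at which the tissue was taken; transcripts of the clock cycle over the day.

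In the mammalian clock, CLOCK and BMAL1, the product of Arntl, form a dimer that binds E-box motifs and drives the Per, Cry and Nr1d genes and Dbp. PER and CRY proteins then repress the dimer, and the nuclear receptors REV-ERB alpha (Nr1d1) and REV-ERB beta (Nr1d2) repress Arntl through response elements that they share with the activating ROR receptors. DBP is an output factor that binds D-box motifs. In a cycling tissue Arntl peaks in antiphase to the Per genes and Dbp. The loop runs in most brain regions, the striatum and midbrain included.

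Library totals lay between 32216850 and 36039211 counts, so that 3 counts equal 0.0832 to 0.0931 CPM (library-scaled counts). In bulk tissue, fewer cells of a type and less RNA per cell cannot be told apart. The markers of the dissected region did not follow the groups. Slc6a3, the dopamine transporter of midbrain neurons, was at 0.338, 102 and 0.402 CPM in MPTP+PF4 libraries 1 to 3, at 0.055, 0.958 and 0.122 CPM in MPTP libraries 1 to 3, and at 0.393, 574 and 526 CPM in control libraries 1 to 3. The summed level of 10 markers of striatal projection neurons was 5563, 311 and 8207 CPM in MPTP+PF4 libraries 1 to 3, 4011, 1025 and 8349 CPM in the MPTP libraries, and 3873, 158 and 151 CPM in the controls. By these markers controls 2 and 3 and MPTP+PF4 2 stood apart, and control 1 stood with most of the treated libraries. MPTP 2 lay between, with a striatal sum of 1025 CPM, and over all genes it was closest to MPTP+PF4 2, with a chi-square per degree of freedom of 52.1 against 96.5 or more to every other library. In the other 6 libraries, MPTP 2 included, the midbrain markers En1, Foxa1, Foxa2, Lmx1b and Pitx3 lay at 0 to 0.183 CPM, although the tissue was labelled mesencephalon. Other dopaminergic markers did not vanish there. En2 lay at 0.684 to 1.49 CPM, Ret at 6.95 to 40.2 CPM and Aldh1a1 at 42.0 to 91.3 CPM, each below controls 2 and 3 and MPTP+PF4 2. Nr4a2 lay at 5.16 to 33.6 CPM, with MPTP 3 above controls 2 and 3 at 18.9 and 20.1 CPM. Calls against control are therefore also given without control 1 and MPTP+PF4 2, and without controls 2 and 3 and MPTP+PF4 2. With either choice the toxin, the injections and the dissected region cannot be told apart.

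The promoters were searched for the motifs of the feedback loop. RefSeq windows on GRCm38.p6, from 250 bases before to 50 bases after a start site, were on hand for 9 of the 10 genes, 13 windows in all, and Per2 had none. They are printed 5′ to 3′ on the strand of the gene, with motif matches in capitals. Arntl (chr7:113207261-113207560, plus strand, the second of its start sites) is shown for its pair of REV-ERB and ROR elements, Cry1 (chr10:85185005-85185304, minus strand) for its E-box, CACGTG, beside the variant CACGTT read on the other strand, Nr1d1 (chr11:98775328-98775627, minus strand) for the same variant, Per1 (chr11:69098699-69098998, plus strand, the first start site) for an E-box, and Per3 (chr4:151044616-151044915, minus strand) for its pair of D-boxes.
Arntl: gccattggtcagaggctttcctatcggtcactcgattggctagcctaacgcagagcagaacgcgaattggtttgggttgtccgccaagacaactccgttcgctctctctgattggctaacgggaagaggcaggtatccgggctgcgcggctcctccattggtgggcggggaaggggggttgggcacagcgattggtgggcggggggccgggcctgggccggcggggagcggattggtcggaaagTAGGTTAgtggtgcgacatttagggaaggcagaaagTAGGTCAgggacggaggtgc
Cry1: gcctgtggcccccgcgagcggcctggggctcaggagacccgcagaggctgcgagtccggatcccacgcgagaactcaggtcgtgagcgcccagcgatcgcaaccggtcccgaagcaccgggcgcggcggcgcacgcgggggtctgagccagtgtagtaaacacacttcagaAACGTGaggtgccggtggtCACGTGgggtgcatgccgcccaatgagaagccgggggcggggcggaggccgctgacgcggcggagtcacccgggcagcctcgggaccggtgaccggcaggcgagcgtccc
Nr1d1: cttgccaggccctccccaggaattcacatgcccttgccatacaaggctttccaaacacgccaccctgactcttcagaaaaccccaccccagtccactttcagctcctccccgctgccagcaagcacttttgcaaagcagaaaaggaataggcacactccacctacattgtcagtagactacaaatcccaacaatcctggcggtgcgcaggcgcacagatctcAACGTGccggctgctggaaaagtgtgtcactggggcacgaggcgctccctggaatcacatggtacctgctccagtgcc
Per1: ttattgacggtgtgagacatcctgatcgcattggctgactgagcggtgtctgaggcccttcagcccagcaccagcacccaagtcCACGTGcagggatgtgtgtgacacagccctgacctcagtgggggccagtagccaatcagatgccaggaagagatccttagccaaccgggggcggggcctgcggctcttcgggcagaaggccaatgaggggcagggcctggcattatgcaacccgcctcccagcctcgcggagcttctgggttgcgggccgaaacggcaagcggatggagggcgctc
Per3: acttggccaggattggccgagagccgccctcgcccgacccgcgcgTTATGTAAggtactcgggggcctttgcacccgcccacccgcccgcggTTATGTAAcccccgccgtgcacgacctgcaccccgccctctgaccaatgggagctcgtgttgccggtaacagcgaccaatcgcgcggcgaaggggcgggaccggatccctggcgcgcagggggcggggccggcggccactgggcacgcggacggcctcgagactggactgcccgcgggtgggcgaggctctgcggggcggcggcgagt

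Motifs were searched on both strands, and none of the matches overlapped another. The E-box CACGTG was in the windows of Per1 and Cry1, 2 of 9 genes, against 8.09% of 27025 genes with a window. The variant CACGTT was in those of Cry1, Cry2 and Nr1d1, against 5.44% of all genes. The D-box, searched as TTANGTAA, was in that of Per3 alone, at -205 and -158 from the start site, against 2.72% of all genes. The REV-ERB and ROR element, searched as TAGGTNA, was in that of Arntl alone, at -6 and 31 from its second start site, against 9.51% of all genes. The cyclic AMP response element TGACGTCA and the glucocorticoid response element were in none of the windows, against 2.03% and 0.537% of all genes. The windows of Clock, Nr1d2 and Dbp held none of the motifs searched. A match describes the letters of the window and shows no binding.

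**Figure D1:**
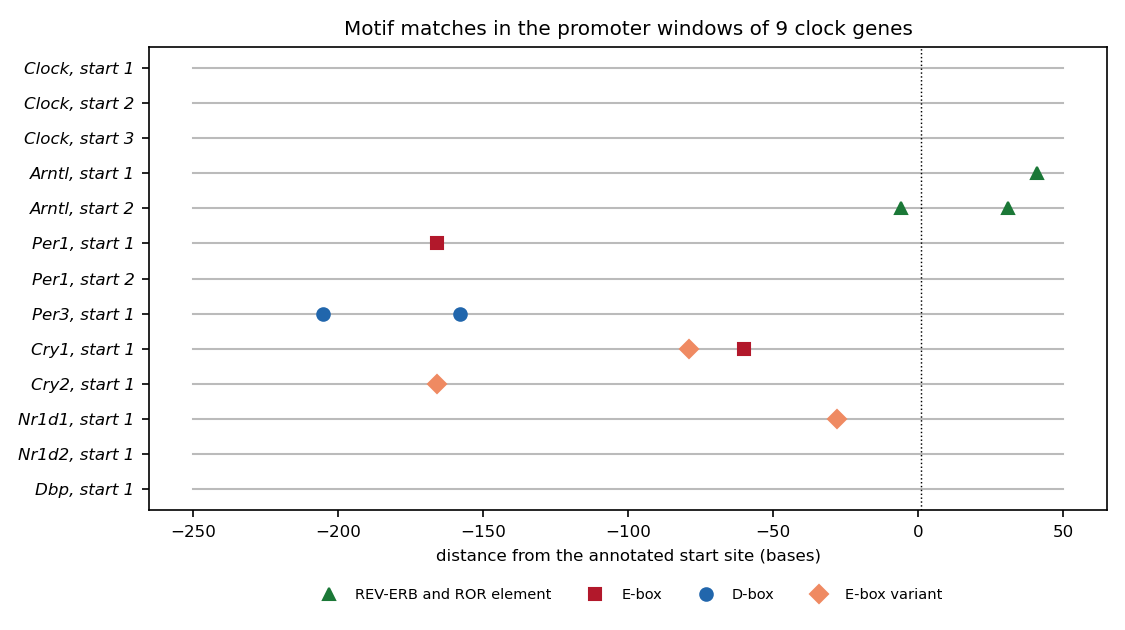
Positions of motif matches in the 13 promoter windows of 9 clock genes, by distance in bases from the annotated start site (dotted line). Arntl holds both REV-ERB and ROR elements near its start sites, and Per3 holds its D-boxes at -205 and -158.

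Per transcript length, Dbp and Nr1d2 had the highest mean levels of the loop and Per2 and Per3 the lowest. The mean FPKM (fragments scaled to transcript length and library size) over all 9 libraries was 45.1 ± 14.1 for Dbp, 33.5 ± 8.10 for Nr1d2, 25.8 ± 3.16 for Cry2 and 24.2 ± 7.80 for Nr1d1 (SD, n = 9). It was 11.02 ± 2.56 for Cry1, 9.12 ± 1.94 for Per1, 8.05 ± 3.51 for Arntl, 7.66 ± 2.07 for Clock, 5.31 ± 1.94 for Per2 and 4.25 ± 0.873 for Per3. The ranges of all neighbours in this order overlapped. Nr1d1 was above Cry1 in 9 of 9 libraries and Clock above Per2 in 9 of 9, whereas Cry2 was above Nr1d1 in only 3, Per1 above Arntl in 5 and Arntl above Clock in 4.

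Among the activators, Arntl varied most of the 10 genes, with 5.17 times as much in its highest library as in its lowest. Arntl was at 32.2, 21.2 and 38.3 CPM in MPTP+PF4 libraries 1 to 3, at 26.9, 22.0 and 38.3 CPM in MPTP libraries 1 to 3, and at 25.5, 7.41 and 9.26 CPM in control libraries 1 to 3. Controls 2 and 3 were below every other library, while control 1 lay inside the range of the MPTP libraries. The log2 fold change was 1.12 (SE 0.466, adjusted p = 0.268) in MPTP+PF4 against control and 1.05 (SE 0.465, adjusted p = 0.274) in MPTP against control, by edgeR's quasi-likelihood test with Benjamini-Hochberg adjustment over all genes. Both comparisons share the control libraries. In the authors' deposited table, which calls genes with DESeq2 at a p of 0.05 and 2-fold, Arntl is the only one of the 10 listed as different, higher than control with MPTP and with MPTP+PF4. Against control it lists, of 28991 genes, 314 as higher and 864 as lower with MPTP. With MPTP+PF4 it lists 242 as higher and 700 as lower.

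Clock, the partner of Arntl in the dimer, differed less and more evenly. It was at 75.9, 75.3 and 112 CPM in MPTP+PF4 libraries 1 to 3, at 92.4, 81.0 and 82.9 CPM in the MPTP libraries, and at 74.4, 46.4 and 47.5 CPM in the controls. Neither treated group overlapped the controls, but control 1 was within 1 CPM of the lowest MPTP+PF4 library. Its log2 fold change was 0.65 (SE 0.236, adjusted p = 0.268) in MPTP+PF4 against control and 0.61 (SE 0.236, adjusted p = 0.265) in MPTP against control, in edgeR. The exact two-sided permutation test on CPM gave p = 0.1 in both comparisons, the smallest that 3 samples against 3 can give.

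The nuclear receptors, which repress Arntl, were higher in the same libraries as Arntl. Nr1d1 was at 91.6, 63.2 and 88.7 CPM in MPTP+PF4 libraries 1 to 3, at 84.0, 65.0 and 92.5 CPM in the MPTP libraries, and at 63.6, 32.8 and 36.6 CPM in the controls. The MPTP libraries did not overlap the controls, and MPTP+PF4 2 lay just below control 1. Its log2 fold change was 0.87 (SE 0.281, adjusted p = 0.268) in MPTP+PF4 against control and 0.86 (SE 0.281, adjusted p = 0.261) in MPTP against control, in edgeR. Nr1d2 was at 173, 151 and 249.9 CPM in MPTP+PF4 libraries 1 to 3, at 175, 157 and 191 CPM in the MPTP libraries, and at 162, 103 and 113 CPM in the controls. Control 1 again lay inside both treated ranges, and the log2 fold changes were 0.60 (SE 0.243) and 0.47 (SE 0.243). Exons of Nr1d1 overlap those of Thra, a thyroid hormone receptor gene on the opposite strand, by 263 bases. Thra had 9542 to 22564 counts per library against 1087 to 3056 for Nr1d1. No source used here gives the strand setting of the counting, so reads from the shared stretch cannot be told apart.

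The Period genes encode repressors of the dimer. Per2 and Per3 were lowest in controls 2 and 3, like Arntl, whereas Per1 was not. Per1 and Arntl were both highest in MPTP 3. Per2 was at 39.1, 24.1 and 51.1 CPM in MPTP+PF4 libraries 1 to 3, at 37.2, 29.3 and 47.0 CPM in the MPTP libraries, and at 33.4, 15.3 and 16.1 CPM in the controls. Its groups overlapped through control 1, with log2 fold changes of 0.82 (SE 0.375) in MPTP+PF4 against control and 0.81 (SE 0.375) in MPTP against control. Per1, which is also induced by neuronal activity and by glucocorticoids, was at 51.1, 29.3 and 53.0 CPM in MPTP+PF4 libraries 1 to 3, at 48.7, 32.3 and 59.6 CPM in the MPTP libraries, and at 48.3, 38.2 and 37.2 CPM in the controls. The second library of each treated group was below all controls, and the log2 fold changes were 0.11 (SE 0.287) and 0.18 (SE 0.287). Per3 ranged over 20.5 to 36.3 CPM in the MPTP+PF4 libraries, 23.9 to 30.5 CPM in the MPTP libraries and 19.7 to 28.1 CPM in the controls, with log2 fold changes of 0.42 (SE 0.248) and 0.27 (SE 0.248).

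The cryptochromes, the other repressors of the dimer, differed from each other. Cry1 was at 33.5, 29.4 and 45.1 CPM in MPTP+PF4 libraries 1 to 3, at 41.4, 31.4 and 47.4 CPM in the MPTP libraries, and at 36.8, 23.8 and 25.2 CPM in the controls. Controls 2 and 3 were again the lowest of all libraries, and the log2 fold changes were 0.33 (SE 0.2498) in MPTP+PF4 against control and 0.49 (SE 0.25) in MPTP against control. Cry2 was the least variable of the 10 genes, with 1.51 times as much in its highest library, control 3, as in its lowest, MPTP+PF4 2. It was at 101.9 ± 15.2 CPM with MPTP+PF4, 108 ± 18.7 CPM with MPTP and 112 ± 14.2 CPM in controls (SD, n = 3 each), and was the only member with log2 fold changes below 0 in both comparisons with control, at -0.14 (SE 0.191) and -0.055 (SE 0.190).

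Dbp, the D-box output factor, spread more within the treated groups than between groups. It was at 119, 52.5 and 103 CPM in MPTP+PF4 libraries 1 to 3, at 87.3, 53.1 and 136 CPM in the MPTP libraries, and at 81.8, 79.9 and 64.3 CPM in the controls. The second library of each treated group was the lowest of all 9, and all 3 controls lay between the extremes of either treated group. The log2 fold change was 0.28 (SE 0.377) in MPTP+PF4 against control and 0.29 (SE 0.376) in MPTP against control. Exons of Dbp overlap those of Sphk2, a sphingosine kinase gene on the other strand, by 539 bases, so part of its reads is uncertain as well. Sphk2 had 421 to 1548 counts per library, highest in controls 2 and 3, against 1832 to 4478 for Dbp. Cry2 and Arntl also share exon bases with genes on the opposite strand, Cry2 295 with D930015M05Rik and Arntl 33 with Gm45355.

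**Figure D2:**
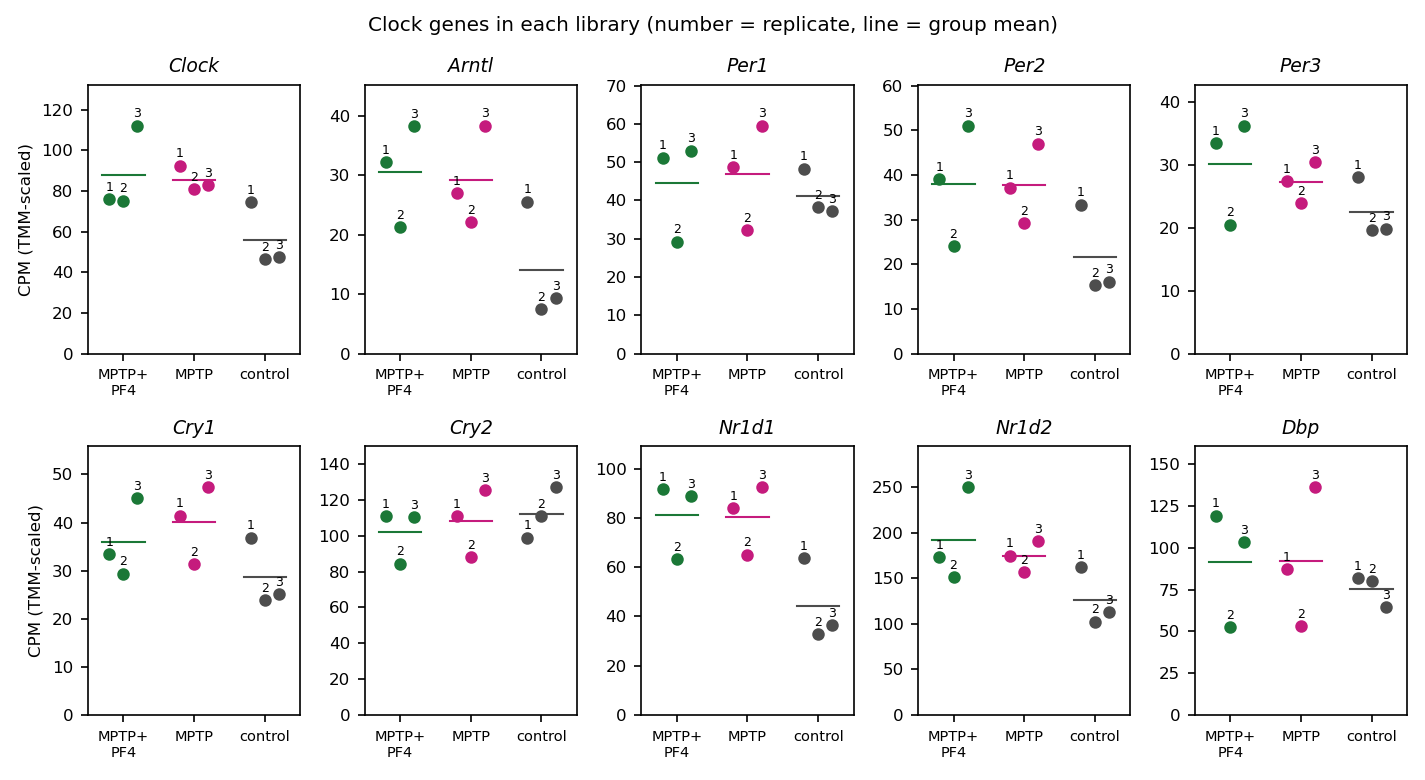
Level of each clock gene in CPM (vertical axis, from 0) in MPTP+PF4, MPTP and control libraries; points are libraries with their replicate number and lines are group means. Control 1 lies within the range of the treated libraries for Arntl, Per2, Cry1, Nr1d1 and Nr1d2 and just below it for Clock, while controls 2 and 3 lie at the bottom for these genes.

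Counted together, 9 of the 10 genes had a log2 fold change above 0 in MPTP against control, with a median of 0.48, where 50.9% of all genes tested lay above 0 and their median was 0.013. In edgeR 0 of the 10 passed an adjusted p under 0.05, as did 0% of all genes, and DESeq2 called 0 of the 10 among 1.66% of all genes. At an unadjusted p under 0.05 there were 2, Clock and Nr1d1, both higher, where 18.2% of all genes passed in either direction, 5.32% as higher and 12.9% as lower. The same 2 genes had groups that did not overlap, against 9.01% of all genes with every MPTP library above every control and 9.19% with every one below. In MPTP+PF4 against control 9 of 10 lay above 0, with a median of 0.51, against 49.8% and a median of -0.0045 over all genes. Again 0 passed in edgeR at an adjusted p, like 0% of all genes, and 0 in DESeq2, which called 0.0579% of all genes. At an unadjusted p under 0.05 there were 4, Clock, Arntl, Nr1d1 and Nr1d2, all higher, where 18.3% of all genes passed in either direction, 6.25% as higher and 12.1% as lower. Only Clock had groups that did not overlap, against 5.61% of all genes with every MPTP+PF4 library above every control and 6.78% with every one below.

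MPTP+PF4 against MPTP asked what PF4 added to the toxin, and the clock genes were close to each other in these groups. Of the 10 log2 fold changes 6 lay above 0, where 53.4% of all genes did, and their median was 0.011, against 0.016 over all genes. They ran from -0.16 (SE 0.249) for Cry1 to 0.14 (SE 0.248) for Per3, and Nr1d2 had 0.14 (SE 0.242). Arntl had 0.071 (SE 0.459), Per2 0.011 (SE 0.372) and Dbp -0.0094 (SE 0.376), each smaller than its standard error. In edgeR 0 of the 10 passed at an adjusted p (0% of all genes), 0 passed at an unadjusted p under 0.05 (2.01% of all genes, 0.648% as higher and 1.36% as lower), and DESeq2 called 0 (0.0926%). The groups overlapped for all 10, against 7.12% of all genes whose groups did not, 3.04% higher and 4.07% lower. Without MPTP+PF4 2 and control 1, 9 of the 10 lay above 0, from -0.047 (SE 0.214) for Cry1 to 0.34 (SE 0.157) for Per3, and 0 passed (0% of all genes). Their median was 0.19, against -0.015 over all genes. The striatal sums in this fit were uneven, at 5563 and 8207 CPM in MPTP+PF4 1 and 3 and at 4011, 1025 and 8349 CPM in MPTP 1 to 3. The part of region in this shift was not tested.

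The calls against control turned on which controls were kept. Without control 1, edgeR called 4 of the 10 in MPTP against control, Clock, Arntl, Per2 and Nr1d1, all higher, where it called 25.8% of all genes, 11.9% as higher and 14% as lower. Without it, the call in MPTP+PF4 against control took in the same 4 and Nr1d2, all higher, among 25.6% of all genes, 12.4% as higher and 13.2% as lower. Arntl then had a log2 fold change of 1.88 (SE 0.340, adjusted p = 0.0124) in MPTP+PF4 against control and 1.81 (SE 0.338, adjusted p = 0.0118) in MPTP against control. Without control 1 and MPTP+PF4 2, edgeR called 6 of the 10 in MPTP+PF4 against control, Clock, Arntl, Per2, Per3, Nr1d1 and Nr1d2, among 34% of all genes, 18.2% as higher and 15.9% as lower. With the same libraries left out it called these 6 and Cry1 in MPTP against control, among 32% of all genes, 17.1% as higher and 14.9% as lower. The shares of members are above these shares of all genes, but the members were chosen with results of these data known.

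With control 1 as the only control, the differences were smaller. Without controls 2 and 3 and MPTP+PF4 2, edgeR called 0 of the 10 against control in either treated group, where it called 0.00556% of all genes in each, and the lone control was taken to vary like the other groups. Arntl then had a log2 fold change of 0.46 (SE 0.347) in MPTP+PF4 against control and 0.19 (SE 0.325) in MPTP against control. Nr1d1 had 0.50 (SE 0.254) and 0.34 (SE 0.239), Clock 0.34 (SE 0.272) and 0.20 (SE 0.256), and Per2 0.44 (SE 0.324) and 0.18 (SE 0.303). The median over the 10 was 0.36 in MPTP+PF4 against control and 0.15 in MPTP against control, against 0.0086 and 0.022 over all genes.

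**Figure D3:**
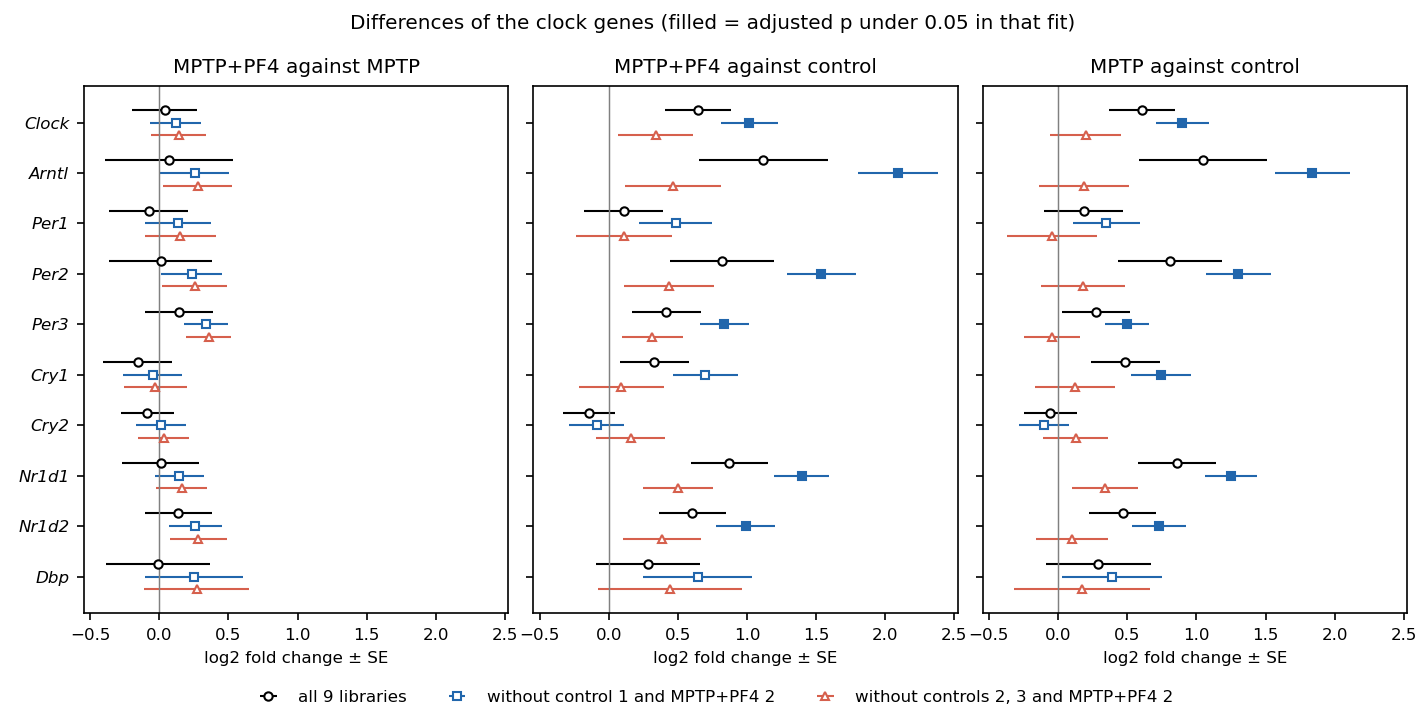
Log2 fold change with its SE for each clock gene in the 3 comparisons, from all 9 libraries (circles), without control 1 and MPTP+PF4 2 (squares) and without controls 2 and 3 and MPTP+PF4 2 (triangles); filled marks have an adjusted p under 0.05 in that fit. Against control the squares lie furthest right for 9 of the 10 genes and the triangles nearest to 0 for Arntl, Clock, Per2 and Nr1d1.

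Most of the levels ran in the order of the striatal markers from library to library. Ordered by Arntl, the libraries ran control 2, control 3, MPTP+PF4 2, MPTP 2, control 1, MPTP 1, MPTP+PF4 1, MPTP+PF4 3 and MPTP 3. Ordered by the summed striatal markers they ran the same way, except that controls 2 and 3 changed places. Of the 36 pairs of libraries 35 were in the same order by both, which held for 0.388% of the 17285 genes tested. Per2 had 34 pairs in the same order (1.78% of genes had at least as many), and Cry1, Nr1d1 and Nr1d2 had 33 each (4.23%). Per1 and Per3 had 32 each (7.07%), Dbp 31 (9.9%) and Clock 29 (16.2%). Cry2, with 20, lay near the median of 18 over all genes. The list of striatal markers held 10 genes in the table, none at 0 in any library, and its part in the differences of the clock genes was not tested.

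**Figure D4:**
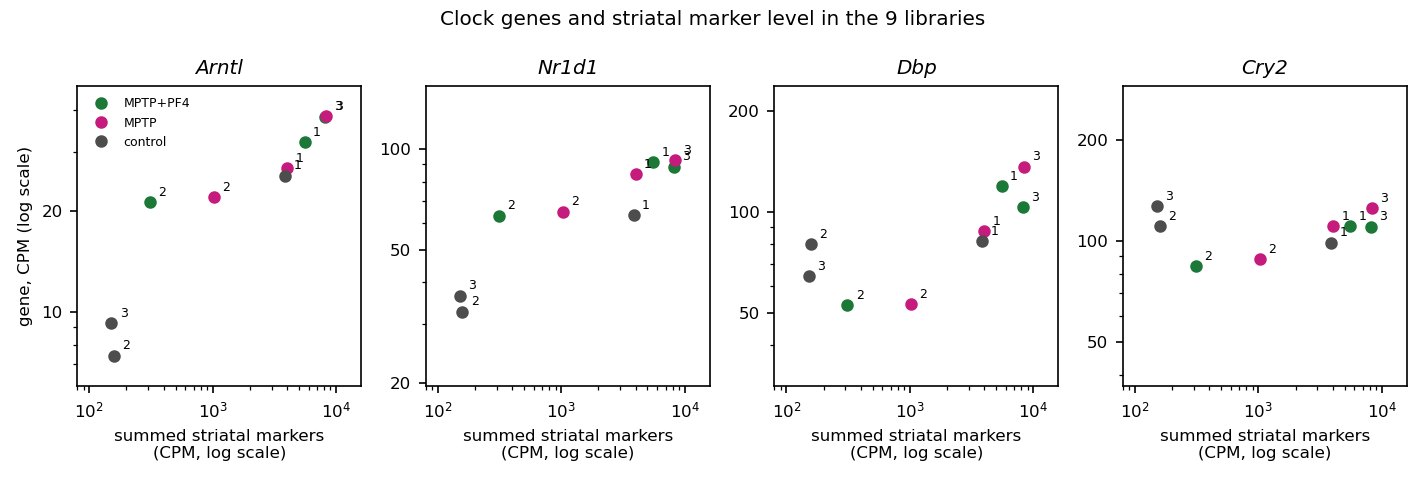
CPM of Arntl, Nr1d1, Dbp and Cry2 (vertical axis, log scale) against the summed CPM of 10 striatal markers (horizontal axis, log scale) in the 9 libraries, with replicate numbers. Arntl and Nr1d1 are lowest in controls 2 and 3, whose striatal markers sum to 158 and 151 CPM, while Dbp is lowest in MPTP+PF4 2 and MPTP 2.

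Other cell markers had patterns of their own. The summed 13 dopaminergic markers were at 148, 668 and 132 CPM in MPTP+PF4 libraries 1 to 3, at 108, 158 and 142 CPM in the MPTP libraries, and at 143, 1836 and 1674 CPM in the controls. Arntl and Clock each ran opposite to them in 31 of 36 library pairs, and Nr1d2 and Cry1 in 33. Per2, Per3 and Nr1d1 did so in 32, 30 and 29, and Per1, Dbp and Cry2 in only 26, 25 and 20. Counting either order, 16.8% of all genes had at least 31 pairs and 5.39% at least 33. For Per2, Per3 and Nr1d1 these shares were 10.5%, 23.9% and 31.6%, and for Per1, Dbp and Cry2 52.9%, 60% and 91.6%. The striatal shares above count the same order only. Counted in either order they were 0.567% for Arntl, 2.74% for Per2, 6.61% for Cry1, Nr1d1 and Nr1d2, and 30.7% for Clock. The summed 8 markers of mature oligodendrocytes ranged from 12691 to 13773 CPM with MPTP+PF4, from 7130 to 14955 CPM with MPTP and from 15538 to 26349 CPM in controls, so that all 3 controls were above all treated libraries. Nr1d1 ran opposite to them in 29 of 36 pairs, the most of the 10, where 6.39% of all genes had at least as many in either order. Arntl and Clock did so in 27 (17.6%), Per2 in 26 (26.8%), and Cry1 and Nr1d2 in 25 (38.4%). Per3, Dbp and Per1 did so in 24, 23 and 22 (50.4%, 61.4% and 71.5%). Cry2 did so in 14 and ran the same way in 22 (71.5%). Markers of the hypothalamus, which houses the master clock, differed as well: the summed 8 hypothalamic markers were at 603 CPM in MPTP+PF4 2, most of it the melanin-concentrating hormone gene Pmch, against 9.71 to 109 CPM in the other libraries, controls 2 and 3 among them. Six6, a factor of the suprachiasmatic nucleus, was at 0 to 0.383 CPM throughout. The part of these lists in the results was not tested.

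Ratios within a library do not depend on its scaling, and they set the loop's arms against each other. On the FPKM scale the log2 ratio of Arntl to Dbp was -2.57, -2.0 and -2.11 in MPTP+PF4 libraries 1 to 3, -2.38, -1.94 and -2.51 in the MPTP libraries, and -2.36, -4.14 and -3.50 in the controls. Controls 2 and 3 thus lay below all other libraries, and control 1 lay inside the range of the treated ones. The log2 ratio of Cry1 to Cry2 split the same way, at -1.33, -1.13 and -0.90 with MPTP+PF4, -1.03, -1.10 and -1.01 with MPTP, and -1.03, -1.83 and -1.95 in controls. By contrast, that of Per2 to Nr1d1, both E-box targets, stayed between -2.49 and -1.89 in all 9 libraries, and that of Dbp to Per1 between 2.06 and 2.55. Not every pair of E-box targets did so: that of Nr1d1 to Nr1d2 ran from -0.87 to -0.14 and was lowest in controls 2 and 3. The ratio of Arntl to Nr1d1 was lowest there too, at -2.27 and -2.11, against -1.74 to -1.31 in the other libraries. Arntl and its repressor Nr1d1 did not run in opposite directions: both were lowest in control 2 and highest in MPTP 3.

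The wider clock pathway was read from a list of 25 genes in the table, all tested: the Clock paralogue Npas2, the ROR receptors, further output factors, kinases and parts of the ubiquitin system. In MPTP against control 20 of the 25 lay above 0, with a median of 0.27, and in MPTP+PF4 against control 22, with a median of 0.33, where 50.9% and 49.8% of all genes lay above 0. In edgeR 0 passed at an adjusted p in any of the 3 comparisons, and 2, 2 and 0 had an unadjusted p under 0.05, all higher, in MPTP against control, MPTP+PF4 against control and MPTP+PF4 against MPTP. Of all genes 5.32%, 6.25% and 0.648% passed as higher in these comparisons. The smallest p in MPTP against control belonged to Btrc, a ubiquitin ligase subunit that recognises PER, and to Gsk3b, a kinase that acts on several clock proteins. Btrc was at 66.1, 65.4 and 72.1 CPM in MPTP libraries 1 to 3, against 63.3, 33.2 and 37.5 CPM in control libraries 1 to 3, and had a log2 fold change of 0.60 (SE 0.245). Gsk3b was at 229.6, 190.2 and 341 CPM in MPTP+PF4 libraries 1 to 3, at 234, 218 and 254 CPM in the MPTP libraries, and at 203.8, 96.97 and 122.7 CPM in the controls. Its log2 fold change was 0.85 (SE 0.306) in MPTP+PF4 against control and 0.74 (SE 0.305) in MPTP against control, and again control 1 stood nearest to the treated libraries.

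Npas2, which can replace Clock in forebrain, differed widely between libraries. It was at 40.4, 11.4 and 54.9 CPM in MPTP+PF4 libraries 1 to 3, at 49.9, 18.8 and 63.8 CPM in the MPTP libraries, and at 30.9, 3.07 and 12.2 CPM in the controls. The groups overlapped, and the log2 fold change was 1.21 (SE 0.825) in MPTP+PF4 against control and 1.52 (SE 0.830) in MPTP against control. Fbxw11, a paralogue of Btrc, had 0.39 (SE 0.216) in MPTP against control, and in MPTP+PF4 against control the deacetylase gene Sirt1 had 0.53 (SE 0.236) and the receptor gene Rorb, also a marker of thalamic neurons, 0.47 (SE 0.221). In MPTP+PF4 against MPTP the smallest p belonged to Rora, with 0.32 (SE 0.222), followed by the casein kinases Csnk1e, with -0.18 (SE 0.197), and Csnk1d, with -0.13 (SE 0.145), which phosphorylate PER, and by Wdr5, with -0.12 (SE 0.142).

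**Figure D5:**
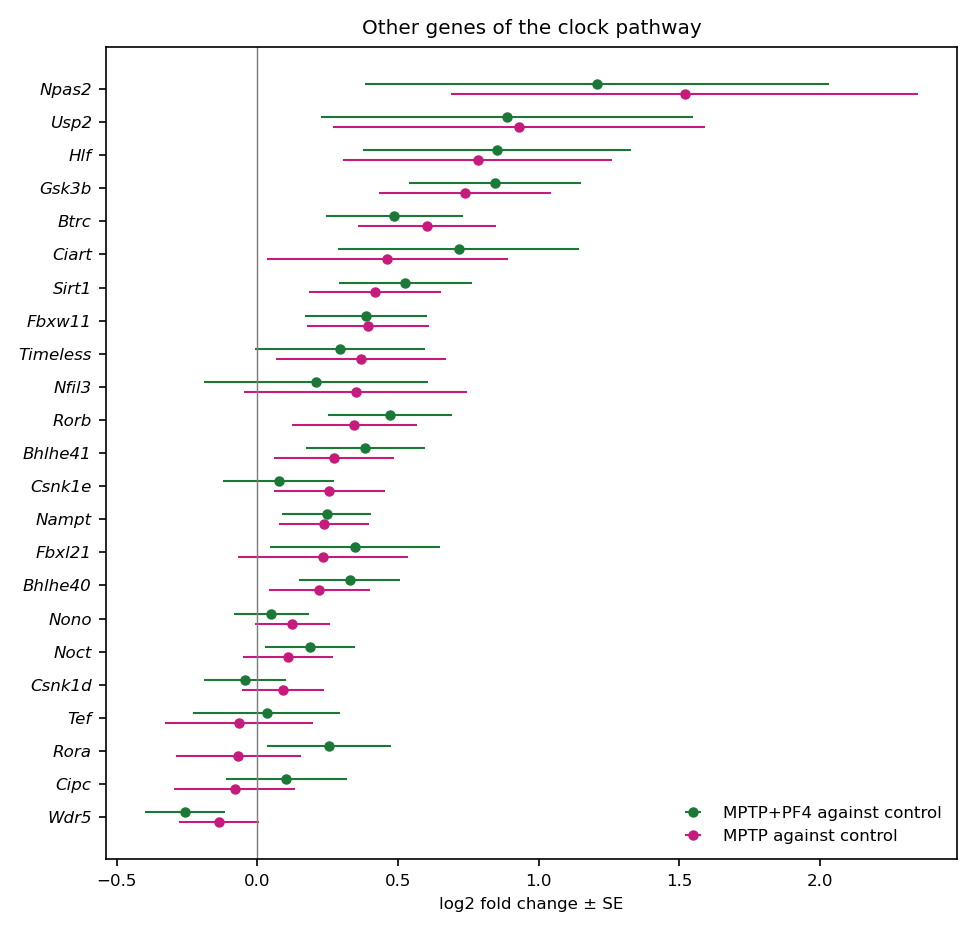
Log2 fold change with its SE for other genes of the clock pathway in MPTP+PF4 against control (green) and MPTP against control (pink), ordered by the second. Npas2, Usp2 and Hlf are at the top with wide errors, and Wdr5 is below 0 in both comparisons.

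Without control 1 and MPTP+PF4 2, edgeR called 8 of the 25 pathway genes higher in MPTP+PF4 against control (18.2% of all genes as higher) and 6 higher in MPTP against control (17.1%). Without controls 2 and 3 and MPTP+PF4 2 it called 0 in either comparison (0.00556% of all genes), and the medians were 0.11 and 0.018.

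Because Per1 responds to neuronal activity and to glucocorticoids, both of those gene lists were read beside the clock. The 11 immediate early genes, which neuronal firing induces, summed to 596, 179.8 and 656 CPM in MPTP+PF4 libraries 1 to 3, to 388, 176 and 503 CPM in the MPTP libraries, and to 319, 106 and 116 CPM in the controls. In 34 of 36 pairs Per2 and Per3 ordered the libraries as this sum did, Arntl in 33 and Per1 in 28. Of all genes 2.6%, 5.24% and 20.6% matched it in at least 34, 33 and 28 pairs. With the striatal sum the same order held in 34 pairs for Per2, 35 for Arntl and 32 for Per1 and Per3. The parts of neuronal activity and of region in these orders were not tested. In edgeR 0 of the 11 passed in any comparison. Npas4, a factor induced only by activity, had a log2 fold change of 1.26 (SE 0.428) in MPTP+PF4 against control and 1.40 (SE 0.429) in MPTP against control, and averaged 4.72 CPM with MPTP+PF4, 5.205 CPM with MPTP and 1.96 CPM in controls. Fos had 0.66 (SE 0.230) in MPTP+PF4 against control and 0.60 (SE 0.229) in MPTP+PF4 against MPTP, and Ier2 ran the other way, with -1.47 (SE 0.487) and -1.11 (SE 0.481) in MPTP+PF4 and in MPTP against control.

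The 13 glucocorticoid response genes were mixed. They summed to 788, 658 and 871 CPM in MPTP+PF4 libraries 1 to 3, to 776, 495 and 700 CPM in the MPTP libraries, and to 855, 1170.2 and 869.8 CPM in the controls. Their median log2 fold change was -0.19 in MPTP+PF4 against control and -0.36 in MPTP against control, with 5 and 4 of the 13 above 0. In edgeR 0 of the 13 passed at an adjusted p, like 0% of all genes. At an unadjusted p under 0.05 there were 3 and 4, all lower, where 12.1% and 12.9% of all genes passed as lower. Per1 matched the order of their sum in 20 of 36 pairs and Arntl in 15, where 38.2% and 74.1% of all genes had at least as many. Tsc22d3, a target of the glucocorticoid receptor, was at 100.1, 87.03 and 89.6 CPM in MPTP+PF4 libraries 1 to 3, at 61.7, 67.7 and 51.8 CPM in the MPTP libraries, and at 118, 160 and 125 CPM in the controls. Its log2 fold change was -0.54 (SE 0.173) in MPTP+PF4 against control and -1.15 (SE 0.175) in MPTP against control. Unlike Arntl it had control 1 with the other controls. Klf9 of the same list, named here after its values were seen, had its libraries in nearly the order of Arntl: it was at 134, 57.8 and 196 CPM in MPTP+PF4 libraries 1 to 3, at 141, 63.6 and 142 CPM in the MPTP libraries, and at 112, 5.94 and 22.7 CPM in the controls. Without control 1 and MPTP+PF4 2, edgeR called 9 of the 11 immediate early genes higher in MPTP+PF4 against control and 7 in MPTP against control, and 1 of them lower in each, where it called 18.2% and 17.1% of all genes higher. Of the 13 glucocorticoid response genes it called 1 higher and 2 lower in MPTP+PF4 against control and 1 higher and 4 lower in MPTP against control, where 15.9% and 14.9% of all genes were called lower. With control 1 as the only control and without MPTP+PF4 2 it called 0 of both lists, against 0.00556% of all genes.

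Outside the clock, the genes most like 4 of its members over the 9 libraries were found by Pearson correlation of log2 CPM with 17275 other genes. Arntl was most like Tusc3 (r = 0.997), Pcdhb20 (r = 0.994) and Pex3 (r = 0.994), and Nr1d1 most like Tspear (r = 0.988), Snx7 (r = 0.986) and Mapk4 (r = 0.984). Per1 was most like Tmem200b (r = 0.997), Inf2 (r = 0.989) and Drd2 (r = 0.983), the last a dopamine receptor gene. Dbp was most like Ccm2 (r = 0.992), BC049352 (r = 0.982) and Ppp1ca (r = 0.977). The genes with r above 0.9 numbered 1740 for Arntl and 1348 for Nr1d1, against 191 for Per1 and 78 for Dbp. These values describe likeness only, since the 9 libraries share the split in region described above.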

How the data were processed

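RNA of tissue labelled as midbrain from 9 mice was sequenced, 3 per group, and replicates were separate animals per the labels. A single table deposited by the authors gives, for each gene and library, a raw count of reads. It also gives an FPKM per gene and library, which adjusts for transcript length, per the file headers. The submitters' processing notes name the build mm9; no source used here names the aligner, the counter or its strand setting. The table has 29001 lines, of which 10 are fragments of annotation text; the rest are 28991 genes. The main test was edgeR's quasi-likelihood F test (edgeR 4.0.16, R 4.3.3), robust, with TMM factors and filterByExpr; the 3 groups shared 1 fit, and p-values were adjusted by Benjamini-Hochberg with a threshold of 0.05. It was first run on simulated counts. These had less spread between replicates than the real libraries and no split in region, so they do not measure its power or errors here. DESeq2 1.42.0 was an alternative. CPM use TMM-scaled totals, and FPKM serve levels between genes. No pair of libraries agreed within sampling noise (lowest chi-square per degree of freedom 29.97). Gene positions and exon overlaps come from GENCODE on GRCm38, and promoters from RefSeq on GRCm38.p6; no position was converted. Counting intervals and floors cover counting error only.

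The members, the gene lists and the alternatives were chosen with earlier results of these data known. Genes outside the members were named by rule: the 4 with the smallest p of each related list per comparison (the text prints some of them), the markers of the dissected region, the 3 genes most like Dbp, Nr1d1, Per1 and Arntl, and genes that overlap a member. The comparison of library orders was added after seeing the data. Some genes of the related lists are not reported here by name.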

Additional observations from a re-analysis of the deposited data

How the results depend on the processing

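Size factors by relative log expression, no filter on low counts, and the 6 samples of a comparison alone left every count of calls at 0 and every direction of the clock genes as reported. DESeq2 called 287, 16 and 10 of all genes in MPTP against control, MPTP+PF4 against MPTP and MPTP+PF4 against control, and none of the 10 clock genes. Whether same-numbered libraries were paired was not settled. They deviated together with correlations from -0.291 to 0.519, and those among the second libraries were 0.174, 0.389 and 0.519. Of the 9 libraries, 3 matched their own number best in both other groups. With the replicate number as a block the counts of calls stayed at 0, and Per2 in MPTP+PF4 against MPTP turned to -0.025.

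Leaving out 1 library at a time gave 0 to 4577 genes and 0 to 4 clock genes in MPTP against control, and 0 to 4539 and 0 to 5 in MPTP+PF4 against control, with all calls in the fit without control 1; MPTP+PF4 against MPTP stayed at 0. Log2 fold changes turned sign within these ranges in MPTP against control: Cry2 -0.17 to 0.097, Dbp -0.10 to 0.59 and Per1 -0.023 to 0.41. In MPTP+PF4 against control Per1 ran from -0.031 to 0.34. In MPTP+PF4 against MPTP the ranges were -0.13 to 0.32 for Arntl, -0.18 to 0.14 for Clock, -0.23 to 0.034 for Cry2, -0.30 to 0.39 for Dbp, -0.14 to 0.16 for Nr1d1, -0.11 to 0.28 for Nr1d2, -0.30 to 0.15 for Per1, -0.26 to 0.25 for Per2 and -0.015 to 0.36 for Per3.

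Without control 1 and MPTP+PF4 2, 5629 genes with 7 clock genes were called in MPTP against control and 5980 with 6 in MPTP+PF4 against control; in MPTP+PF4 against MPTP, Per1 turned to 0.13, Cry2 to 0.016 and Dbp to 0.25. Without controls 2 and 3 and MPTP+PF4 2, 1 gene was called in each comparison with control; Per1 turned to -0.045, Per3 to -0.044 and Cry2 to 0.13 in MPTP against control, Cry2 to 0.16 in MPTP+PF4 against control, and Per1 to 0.15, Cry2 to 0.034 and Dbp to 0.27 in MPTP+PF4 against MPTP. The cause was not tested.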

Other observations

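Other output genes of the clock, picked here after their values were seen, did not share 1 lowest library. Hlf, a D-box factor related to Dbp, was at 234, 118 and 342 CPM in MPTP+PF4 libraries 1 to 3, at 240.3, 121 and 299.9 CPM in the MPTP libraries, and at 197, 89.8 and 98.0 CPM in the controls. Tef, the third factor of that family, resembled Dbp more than Hlf did: it was at 408, 245 and 441 CPM with MPTP+PF4, at 340.4, 257 and 424 CPM with MPTP, and at 354, 325 and 390.4 CPM in the controls, so that the second library of each treated group was the lowest. Ciart, a repressor of the clock dimer, was at 21.7, 7.996 and 22.4 CPM with MPTP+PF4, at 12.8, 10.8 and 20.1 CPM with MPTP, and at 14.8, 9.10 and 7.83 CPM in the controls. None of the 3 passed in edgeR in any comparison.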
